A study of Arabidopsis thaliana with 3 samples.

Results

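This section describes 4433 peaks of an HA-tagged AtSDR4L ChIP-seq experiment that lay between protein-coding genes of Arabidopsis and were found in replicate 1 and not in replicate 2. They were chosen as the distinct peak intervals of replicate 1 on chromosomes 1 to 5 that shared not even 1 bp with a replicate 2 peak, and whose summit, the point of highest enrichment, lay outside the span of every nuclear coding gene. They made up 45.2% of the 9811 nuclear peaks of replicate 1, 55.2% of the 8027 found in that replicate only, and 79.5% of its 5577 intergenic peaks. Absence from replicate 2 and an intergenic summit are therefore how the peaks were selected and are not results.

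The study used whole Arabidopsis thaliana seedlings of an AtSDR4L-HA line whose transgene is switched on by β-estradiol, collected 4 days after imbibition under 16 h of light and 8 h of darkness at 22 °C. There were 2 induced biological replicates, grown with 1 µM β-estradiol. A single library from uninduced seedlings of the same line, precipitated with the same anti-HA antibody, served as control. All 3 libraries thus carried the transgene, and the comparison is one of induction. Peaks were called for each induced replicate against that single control, so any oddity of the control library enters both lists. Neither the transgene's promoter nor the number of independent lines is stated in the labels, and whole seedlings mix all tissues.

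AtSDR4L is an Arabidopsis relative of rice SDR4, a regulator of seed dormancy, and is known for a role in the passage from seed to seedling. In ChIP-seq, protein crosslinked to DNA is pulled down with an antibody, and stretches of the genome that return more fragments than the control are called as peaks. In the compact Arabidopsis genome most regulatory DNA lies in short stretches beside genes, and open stretches at active genes also tend to return fragments in many ChIP experiments.

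The fold enrichment of the 4433 peaks, the authors' ratio over the control at the summit, ran from 1.09 to 5.66 with a median of 1.86 (95% interval of the median 1.84 to 1.88). A fold of at least 2 was reached by 1757 of them (39.6%, 38.2 to 41.1), a fold of at least 3 by 200 (4.51%, 3.92 to 5.16) and a fold of at least 4 by 14. The 1144 intergenic peaks of replicate 1 that were overlapped in replicate 2 had a median of 2.53 (2.49 to 2.60) and reached 3 in 31.6% (29.0 to 34.4). The 3594 peaks of replicate 1 only with a summit inside a gene had a median of 1.65 (1.64 to 1.65). The replicate 1-only intergenic peaks thus lay between the shared intergenic and the unshared genic peaks of replicate 1 in fold. In replicate 2, the 411 intergenic peaks found there only had 1.66 (1.62 to 1.72), beside 1.91 (1.87 to 1.95) for the 1085 shared with replicate 1. Shared intergenic peaks thus had lower folds in replicate 2 than in replicate 1. A fold of 1 replicate can therefore not be set directly against a fold of the other. Each class comes from 1 library and peaks are not replicates, so these differences are descriptions with no test, and all intervals cover counting over peaks only.

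Most of the weak intergenic peaks of replicate 1 and few of those with a fold of at least 4 belonged to the unshared set. They were 91.1% (88.6 to 93.1) of the 660 intergenic peaks with a fold under 1.5, 64.8% (61.0 to 68.4) of the 662 with a fold from 2.5 to 3, 42.9% (38.1 to 47.7) of the 434 from 3 to 4, and 11 of the 102 from 4 to 5. Above 5 they were 3 of 26. The median width was 426 bp (419 to 432) against 568 bp (541 to 583) for the shared intergenic peaks, and 883 (19.9%) held several summits, up to 9 in 1 interval. Peaks with 4 or more summits had a median fold of 2.23 (2.104 to 2.404) against 1.83 (1.82 to 1.86) for the 3550 with 1 summit.

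**Figure D1:**
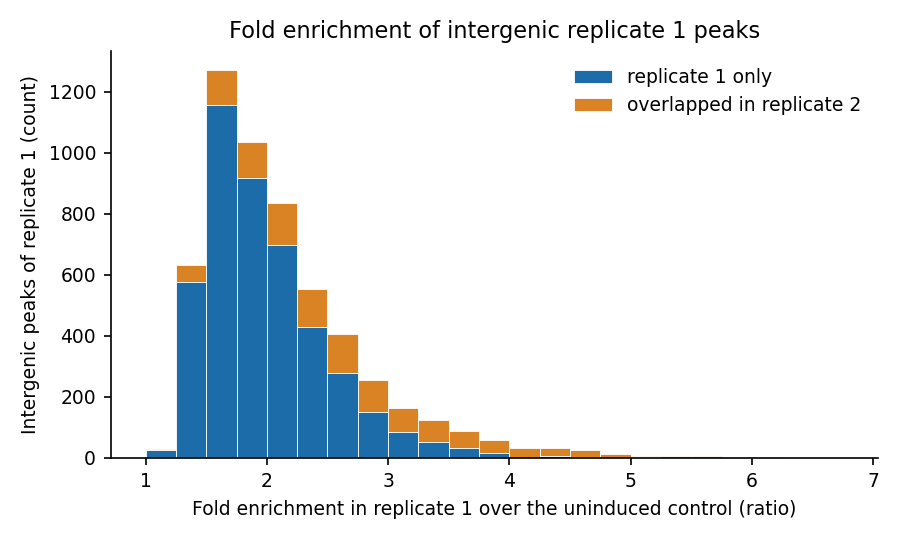
Histogram of fold enrichment over the uninduced control (x axis, ratio, bins of 0.25) for the 5577 intergenic peaks of replicate 1 (y axis, count), stacked by whether replicate 2 overlapped them. The 4433 found in replicate 1 only fill most of the bars below a fold of 2.5, and 14 of them reach 4.

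The 3 strongest of these peaks lay in gaps of 2932 to 8491 bp between coding genes. The highest fold, 5.66 with a −log10 q of 98.1, belonged to a peak at chromosome 4: 18461570-18462216, 350 bp from AT4G39790. The next, at chromosome 1: 11816192-11816730 with a fold of 5.09, lay over 4 kb from either neighbour, 4046 bp from AT1G32660 and 4446 bp from AT1G32690. The third, at chromosome 4: 6909689-6910315 with 5.001, lay 1489 bp from RHA1A, a RING-H2 finger gene. All 3 held a single summit, and the nearest replicate 2 peaks were 2280 bp, 17307 bp and 3246 bp away. Coordinates are 1-based on TAIR10, as in the deposited files.

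The next folds in rank that are described here had well-studied genes in reach. A peak at chromosome 2: 18060142-18061007 with a fold of 4.75 lay 1158 bp from AT2G43500 (NLP8), a NIN-like factor that links nitrate to germination. A peak at chromosome 1: 8059264-8059724 with 4.50 lay in the gap between PAB3, a poly(A)-binding protein gene 438 bp away, and GI, the clock gene GIGANTEA, 2253 bp away, and a replicate 2 peak began 898 bp from it. At chromosome 4: 16587627-16588042 a peak with 4.44 lay in a gap of 8103 bp between AT4G34760 (SAUR50) and AT4G34770 (SAUR1), small auxin-upregulated genes. SAUR55 (AT5G50760) had a peak of 4.44 at a distance of 62 bp, at chromosome 5: 20643036-20646393, which at 3358 bp with 5 summits was also the fourth widest.

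The other 8 of the 15 highest folds ran from 3.96 to 4.57, the lowest of them tied with the peak at WRKY38. The genes at either end of their gaps included MYB50 (2756 bp), the fucosyltransferase gene FUT6 (4139 bp), the plastid ribosomal protein gene PSRP6 (144 bp), the chitinase-like gene CTL2 and the pair MLP328 (2207 bp) and MLP329 (209 bp). The peak beside CTL2 at chromosome 3: 5778170-5778639 had a fold of 4.37 and sat in a gap of only 823 bp, 377 bp from CTL2 and 447 bp from AT3G16930. The widest of all, 4460 bp with 9 summits at chromosome 3: 160114-164573, had a fold of 2.53 at its main summit, between DOX1, an alpha-dioxygenase gene 1446 bp away, and AT3G01430, 1041 bp away. The next widest, 3868 bp with 8 summits at chromosome 3: 7647979-7651846, lay between AT3G21710 and ICL, which encodes isocitrate lyase of seedling oil breakdown, with a fold of 3.02.

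The fold values themselves fell into 2 kinds, a pattern noticed in the data. In 2195 of the 4433 peaks (49.5%, 48.0 to 51.0) the fold was a whole multiple of 0.0226 within 0.00003, as ratios over 1 common denominator are. Values spread evenly would meet that tolerance in 0.265% of cases. Peaks on the same step also shared 1 −log10 q value, in 2189 of the 2195. As background, MACS2 by default takes the control level at no less than a genome-wide floor, so that places with little control signal share 1 denominator. The labels do not state whether the authors kept that default.

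The peaks off the steps had larger −log10 q at a like fold. All 2013 off-step peaks with a fold at or above the lowest step had a −log10 q above the step values at the same fold, read by interpolation, and the other 225 had no step to be set against. The median fold of all 2238 off-step peaks was lower, at 1.75 (1.73 to 1.77) against 1.99 (1.97 to 2.01). At 1 fold, a Poisson test gives a larger −log10 q where the signal in the ChIP and in the control are both higher. The share on the steps was 38.8% (36.0 to 41.6) for summits 101 to 250 bp from a coding gene and 71.8% (66.9 to 76.4) for those 2001 to 5000 bp away. For the 46 summits beyond 5000 bp the share was 47.8% (32.9 to 63.1). It was 41.0% (38.1 to 43.9) for shared intergenic peaks of replicate 1 and 31.8% (30.3 to 33.4) for its unshared genic peaks. Shared genic peaks of replicate 1 had 19.8% (16.8 to 23.1). In replicate 2, the shared intergenic peaks had 40.6% (37.6 to 43.5) and the unshared intergenic ones 16.5% (13.1 to 20.5).

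The lowest step that held at least 20 peak rows, at which a peak with the common denominator just passed the limit of q, was a fold of 1.403 in replicate 1. In replicate 2, with steps of its own at 0.0210, it was 1.45. Of the 4433 peaks, 4022 (90.7%) had a replicate 1 fold at or above the replicate 2 value. This count does not tell how many would have been called in replicate 2. The fold of the same place in replicate 2 is unknown, since a peak list holds nothing below its limit. Folds also ran lower there, with 1.91 at the median for its shared intergenic peaks against 2.53 for those of replicate 1. The value of 1.45 further holds only for peaks on the steps of replicate 2, and 2238 of the 4433 lay off those of replicate 1. The 225 peaks (5.08%) with a fold below the lowest step of replicate 1 all lay off the steps.

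**Figure D2:**
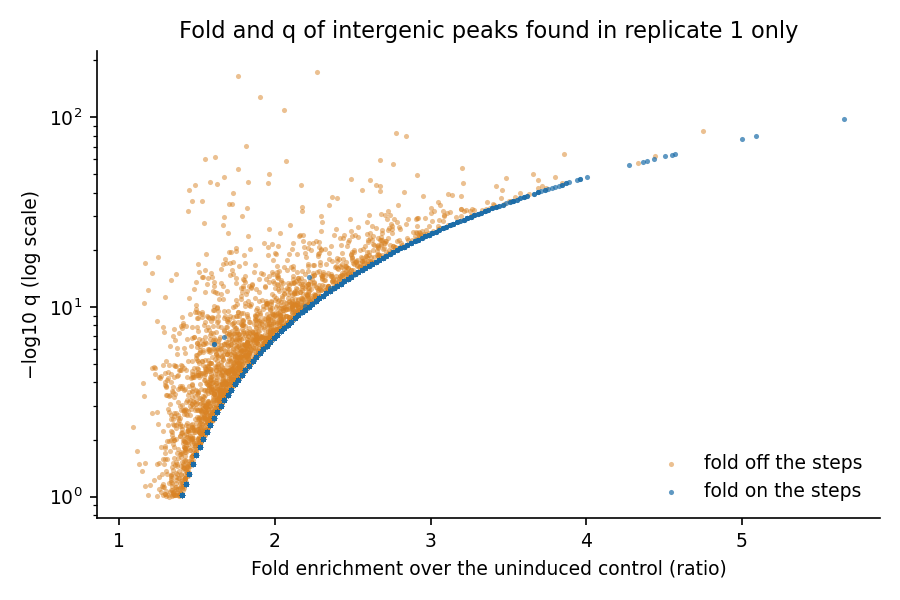
Fold enrichment (x axis, ratio) against −log10 q (y axis, log scale) for the 4433 intergenic peaks found in replicate 1 only, 1 point per peak. Blue points, the 2195 peaks on the steps, follow 1 curve, and orange points, the 2238 peaks off the steps, lie above it or to the left of its lower end.

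A small set of peaks combined a very small q with a low fold. Of the 75 peaks with a −log10 q of at least 40, 14 had a fold under 2 (1.45 to 1.96), limits chosen after the values were seen. All 14 lay off the steps, which the limits themselves require, since steps below a fold of 2 have far lower −log10 q. The peak at chromosome 3: 193907-194628 had a −log10 q of 165 at a fold of 1.76 and lay 32 bp from CA1, a carbonic anhydrase gene, where the steps give 4.13 at that fold. At chromosome 5: 15380096-15380893 a peak with 127 at a fold of 1.90 lay 333 bp from RBCS2B, a Rubisco small subunit gene. RBCS3B, its neighbour, had a peak 37 bp away with 53.3 at 1.76.

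The same 14 peaks included neighbours of CA2 (314 bp, fold 1.45), of HPR, a photorespiratory reductase gene (122 bp, 1.96), and of APE2, the plastid triose phosphate translocator gene (13 bp, 1.96). They also included neighbours of the floral repressor gene TEM1 (158 bp, 1.82), of ERF104 (227 bp, 1.55) and of GAE1, a cell wall sugar epimerase gene (84 bp, 1.61). The others lay nearest to 5PTase12 (134 bp, 1.67), OXS3 (426 bp, 1.58), AT1G23390 (380 bp, 1.82), AT1G31175 (1279 bp, 1.63) and AT2G20670 (261 bp, 1.49). The highest −log10 q of all, 173 at a fold of 2.27, lay outside this set, 226 bp from AT2G10940 at chromosome 2: 4309594-4311658. The control signal behind these peaks is not in the peak list.

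The summits crowded close to coding genes. The median distance to the nearest coding gene was 269 bp (255 to 288), with 1824 summits (41.1%, 39.7 to 42.6) within 200 bp and 3450 (77.8%, 76.6 to 79.0) within 1000 bp. Of all bases outside coding genes, 14.1% lie within 200 bp and 44.5% within 1000 bp of one. Counted per Mb of such bases, there were 219 summits at 1 to 100 bp, 236 at 101 to 250 bp, 109 at 251 to 500 bp and 42.2 at 2001 to 5000 bp. Beyond 5000 bp, where 23.6% of these bases lie, there were 46 summits, or 3.57 per Mb. The gene table used here holds no strand, so starts and ends of genes could not be told apart.

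The shared intergenic peaks lay somewhat farther out and those of replicate 2 only lay closer. Their median distances were 438 bp (396 to 500) and 135 bp (125 to 154), and their shares within 1000 bp were 70.7% (68.0 to 73.3) and 87.8% (84.3 to 90.8). Coding genes stood within 1000 bp on both sides of 1438 of the 4433 peaks, on 1 side of 2012 and on neither side of 983. Fold was higher away from genes, with a median of 1.75 (1.73 to 1.77) between 2 close genes, 1.87 (1.83 to 1.89) beside 1 and 2.06 (2.02 to 2.104) beside none. By distance the median was 1.77 (1.74 to 1.79) at 101 to 250 bp and 2.104 (2.04 to 2.15) at 2001 to 5000 bp, and 1.75 (1.58 to 1.99) for the 46 beyond that.

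**Figure D3:**
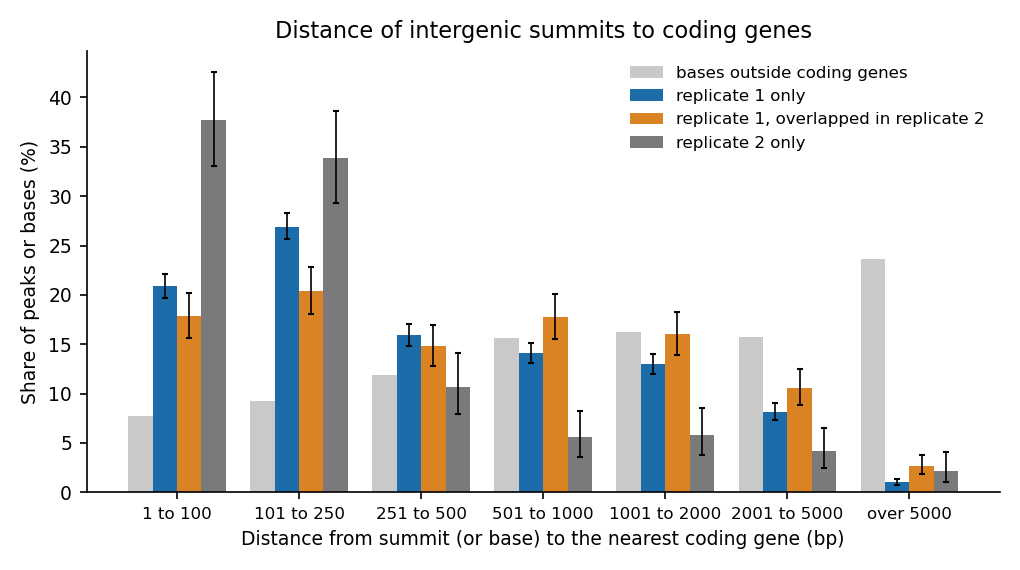
Share of intergenic summits (y axis, %) by distance to the nearest coding gene (x axis, bp) for peaks of replicate 1 only, replicate 1 peaks overlapped in replicate 2 and peaks of replicate 2 only, with exact 95% binomial intervals, beside the share of all bases outside coding genes. Replicate 1-only summits at 101 to 250 bp make up 26.9% where the bases make up 9.26%.

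Because the rule cuts at the gene edge, peaks on either side of it were compared as a description. Within 50 bp of a gene end, 452 of the 4433 summits lay outside, with a median fold of 1.75 (1.71 to 1.79), and 412 replicate 1-only summits lay inside, with 1.77 (1.72 to 1.81). Within 100 bp the order was the other way, with 1.79 (1.76 to 1.81) for 927 outside and 1.74 (1.71 to 1.77) for 808 inside. The nearest summits lay 1 bp from ABCC5 (fold 2.06), from AT1G27300 (1.53), from GLY3 (1.85), from AT1G54410 (1.53) and from AT1G64490 (1.77). A summit just outside a gene often belonged to an interval that reached into it. Only 2464 of the 4433 intervals (55.6%, 54.1 to 57.1) lay wholly outside coding genes.

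Chromosome arms held nearly all of these peaks. Of 121 bins of 1 Mb, 15 had fewer than 100 coding genes, and they held 71 of the 4433 peaks (1.60%, 1.25 to 2.02) on 24.9% of the bases outside coding genes. The shared intergenic peaks had 2.80% (1.92 to 3.93) there. The median number of peaks per bin was 3 in the 15 gene-poor bins, 36 in the 23 bins with 200 to 249 genes and 48 in the 59 with 250 to 299. Per Mb outside coding genes, chromosome 5 held 90.0 peaks and chromosome 2 held 68.9, and the median fold was 1.86 to 1.88 on every chromosome.

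**Figure D4:**
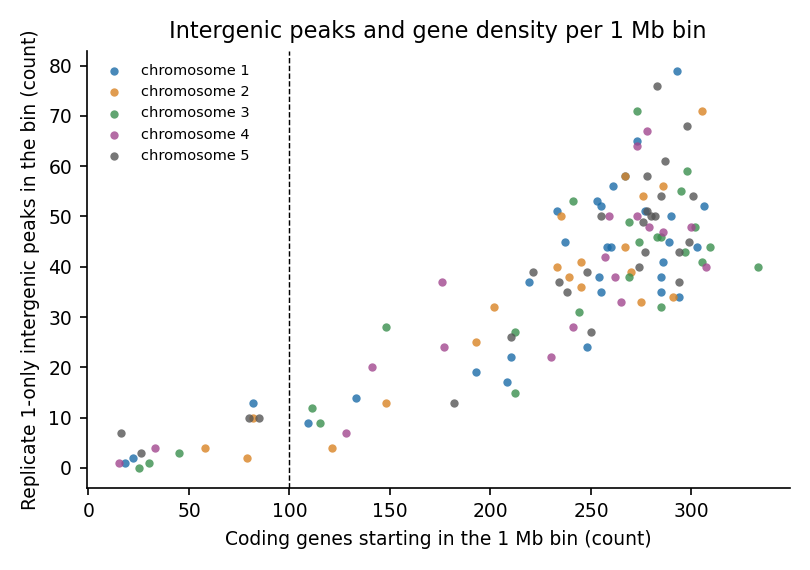
Number of replicate 1-only intergenic peaks (y axis, count) against the number of coding genes (x axis, count) in each 1 Mb bin, coloured by chromosome, with a dashed line at 100 genes. The 15 bins left of the line hold 0 to 13 peaks each, and bins with 250 to 299 genes hold 27 to 79.

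The peaks farthest from a coding gene lay in a gap of 440078 bp on chromosome 5 between AT5G30520 and AT5G32440. At chromosome 5: 11733538-11733815 a peak with a fold of 2.14 was 97089 bp from the nearer gene, and 3 others between 11702580 and 11728645 had folds of 1.57 to 1.94. The fifth, at chromosome 5: 12877492-12877764, was 42726 bp from AT5G34581 with a fold of 2.02. A peak at chromosome 5: 11184958-11185207, in a gap of 36468 bp, had a −log10 q of 109 at a fold of 2.06, and a replicate 2 peak lay 316 bp from it.

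Non-coding genes held few of the summits. Inside the span of a non-coding gene lay 213 summits (4.80%, 4.19 to 5.48), and such spans cover 21.8% of the bases outside coding genes. These shares were not compared within gene-rich bins alone, and gene-poor bins held 24.9% of the bases and 1.60% of the peaks. Long non-coding RNA genes held 127 of the 213 summits at 130 of 3480 genes, transcribed pseudogenes 30, other pseudogenes 8 at 7 of 3917 genes, tRNA genes 4 at 4 of 625 and ribosomal RNA genes 0 of 4. The median fold inside non-coding spans was 1.695 (1.63 to 1.75) against 1.88 (1.86 to 1.89) outside them. The highest fold inside one was 3.73, in the long non-coding RNA gene AT1G06373 at chromosome 1: 10954264-10954718. The next were 3.28 in AT5G03465, 3.26 in AT5G09775, 3.23 in AT5G45472 and 3.15 in the transcribed pseudogene AT3G27997.

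Genes of microRNAs, short RNAs that guide the cleavage or repression of matching transcripts, had a summit within 500 bp in 14 of 326 cases (4.29%), summits inside the gene included. Of coding genes, 12.7% had one outside their span within that distance. The median fold of these 14 peaks was 1.68, and 3 summits lay inside the gene span, in MIR865, MIR8166 and MIR158a. Both genes of miR168, which targets the AGO1 transcript of the microRNA machinery itself, were among the 14, MIR168b with a fold of 1.97 at 205 bp and MIR168a with 1.72 at 268 bp. MIR170, of the family that targets HAM genes of the meristem, had 1.80 at 32 bp. MIR172e, of the family that targets AP2-type floral genes, had 1.78 at 494 bp, and MIR408, whose RNA targets transcripts of copper proteins, had 1.75 at 360 bp. The peak at MIR865, with a fold of 1.99, lay in the gap of 796 bp between bZIP3 and the photoperiod gene CO.

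A coding gene was counted as a neighbour when a summit lay within 1000 bp of its span. A summit could thus count for several genes, and a gene named with a peak is not always the nearest one. Of 27444 nuclear coding genes, 4573 (16.7%) had such a neighbouring peak, 405 had 2 or more and none had over 3. The median fold of the strongest peak per gene was 1.81 (1.79 to 1.82). A neighbouring peak with a fold of at least 2 was found at 5.91% of coding genes, and a shared intergenic peak at 3.9%. Of the 4573 genes, 173 (3.78%) also had a shared intergenic peak, which are 16.2% of the genes with a shared one. GH3.17, which encodes an auxin-conjugating enzyme, WRKY65, LBD16, a factor of lateral root initiation, and COB, a gene of oriented cell expansion, were among the 18 genes with 3. Over LBD16 the folds ran from 1.90 to 3.598.

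Genes of 13 fixed lists had such a peak in 39 of 150 cases (26.0%, 19.2 to 33.8), beside 16.7% of all coding genes. These counts are read beside that share and were not tested as sets, since the lists were written with earlier results of these data known. Light signalling had 7 of 11 genes (63.6%, 30.8 to 89.1), and 1 of the 11 had a shared intergenic peak. HY5, a bZIP activator of seedling greening, had the highest fold of the list, 2.58 at 124 bp. The blue light receptor genes CRY1 (1.81) and CRY2 (1.39), the red light receptor gene PHYB (1.65), HYH, the close relative of HY5 (1.52), PIF5, a growth-promoting bHLH gene (1.37), and COP1, a ubiquitin ligase gene (1.35), followed. All 7 lay within 500 bp, and 6 of these folds were under 2. The peaks counted for HY5 and PIF5 lay nearer to other genes, 77 bp from OCP3 and 34 bp from PAO3. With a −log10 q of at least 5 the list had 2 genes, beside 2746 (10%) of all coding genes, and with the whole interval outside coding genes it had 1, beside 6.89%.

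Of the 14 genes of the clock list 1 had a replicate 1-only intergenic peak, PRR5 with a fold of 1.69 at 79 bp, and 8 had a shared intergenic peak. Where only a reciprocal overlap of 50% counted as shared, 4 of the 14 had an unshared one, beside 18.0% of all coding genes, and with a −log10 q of at least 5 there were 0, so this count hangs on the rule. The light-harvesting antenna list was similar, with 2 of 18 genes, LHCA1 (2.81 at 845 bp) and LHCB1.4 (2.22 at 77 bp), beside 7 with a shared peak. The peak counted for LHCA1 lay nearer to AT3G54880, at 61 bp. With a window of 500 bp the list had 1 gene, beside 12.7% of all coding genes. With the whole interval outside coding genes it had 0, beside 6.89%. Whether these lists differ from the light signalling list was not tested.

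Genes of abscisic acid (ABA) signalling, the hormone pathway that holds seeds dormant, were counted by role. Of 8 receptor genes 4 had a peak, PYR1 with a fold of 2.67 at 705 bp, PYL4 with 1.49, PYL1 with 1.42 and PYL5 with 1.25, and 0 of the 8 had a shared intergenic peak. Of 9 clade A PP2C phosphatase genes, which hold the pathway down, 3 had one, AHG1 (2.24 at 675 bp), HAB2 (2.05 at 67 bp) and ABI2 (1.86 at 17 bp). Of 8 genes of its kinases and bZIP activators 4 had one, ABF1 (2.65 at 68 bp), ABI5 (1.95 at 8 bp), ABF3 (1.77 at 907 bp) and the kinase gene SNRK2.2 (1.65 at 58 bp). ABF3 also had a shared peak. ABA metabolism had 1 of 13, the synthesis gene NCED2 (1.86 at 889 bp), whose peak lay nearer to GOX3, at 360 bp. With a −log10 q of at least 5 the receptors had 2, the phosphatases 3, the kinases and bZIP activators 2 and ABA metabolism 1. Of all 27444 coding genes, 2746 had a peak at that limit. With at least 10 ABA metabolism had 0 and the other lists of this paragraph 1 each, beside 5.15% of all coding genes. With the whole interval outside coding genes the receptors had 3 and the other lists 1 each, beside 6.89% of all coding genes.

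Gibberellin genes, which act against ABA in germination, had a peak in 6 of 18 cases with folds from 1.47 to 1.99. Among them were the DELLA repressor genes GAI (1.99 at 181 bp), RGA1 (1.83 at 225 bp) and RGL1 (1.81 at 104 bp), the gene of the enzyme that inactivates gibberellin, GA2OX1 (1.92 at 331 bp), and the synthesis gene GA3OX1 (1.63 at 153 bp). The F-box gene SLY1, whose product removes DELLA proteins, had 1.47 at 240 bp. The peak counted for SLY1 lay nearer to VEP1, at 223 bp. No fold in this list reached 2, and GAI also had a shared peak. The list had 2 genes with a −log10 q of at least 10, beside 5.15% of all coding genes. With the whole interval outside coding genes it had 3, beside 6.89%.

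Seed genes were counted in 3 lists. Of 14 seed maturation factors 3 had a peak, HSL1, a B3 repressor of the embryo program also called VAL2 (2.56 at 102 bp), BZIP10 (1.98) and BZIP53 (1.83), bZIP activators of maturation genes. Of 16 storage, oil body and LEA genes 2 had one, SESA5 (2.06 at 648 bp) and CRA1 (1.92 at 303 bp), which encode storage proteins. Both peaks lay nearer to another gene, 340 bp from G18F and 167 bp from ABCI21. With each peak counted only for its nearest gene, at any distance, this list had 0 genes, beside 3824 of all 27444 coding genes. Of 9 dormancy and germination genes 2 had one, SOM, a light-dependent germination repressor gene (2.33 at 551 bp), and RVE1, a MYB gene that promotes dormancy (2.18 at 431 bp). The peak at SOM lay between it and ERF10 and was counted for both genes. AT5G50360 (DIG2), a relative of AtSDR4L, had a peak with a fold of 1.79 at 438 bp, but AT5G50361 lay nearer to it, at 214 bp, and with a −log10 q of at least 5 the peak drops out. AT3G27250, AtSDR4L itself, had a shared intergenic peak with a fold of 1.86 and no unshared one, and AT3G48510 had neither kind. Housekeeping genes had 3 of 9, TUB9 (2.49), GAPC1 (1.62) and ACT2 (1.55). With the whole interval outside coding genes the seed maturation list had 1, the storage list 2, the dormancy list 1 and the housekeeping list 0, beside 6.89% of all coding genes. With a −log10 q of at least 10 they had 2, 0, 2 and 2, beside 5.15%.

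Gene families were matched by name, 12 in all, and their order by share changed with the limits on the peaks. WRKY genes, many of which act in defence and stress responses, had a peak in 28 of 71 cases (39.4%, 28.0 to 51.7) with a median fold of 2.21 against 1.81 over all genes with a peak, and 17 of the 28 reached 2. WRKY38 led with 3.96 at 974 bp, followed by WRKY14 (3.51 at 40 bp), WRKY3 (3.12 at 851 bp), WRKY4 (3.05 at 898 bp) and WRKY75 (2.91 at 555 bp). The peak counted for WRKY4 lay nearer to ELF5A-1, at 450 bp. A shared intergenic peak lay at 6 of the 71. With the whole interval outside coding genes 16 of the 71 were counted, beside 6.89% of all coding genes, and with a −log10 q of at least 10 also 16, beside 5.15%. A replicate 2 peak began 997 bp from that of WRKY38 and 1512 bp from that of WRKY3.

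Aux/IAA names had 13 of 32 genes (40.6%, 23.7 to 59.4), with the highest folds at IAA9 (2.69 at 943 bp) and IAA13 (2.62 at 91 bp), repressors of auxin-responsive genes. The name match also took in the auxin response factor genes ARF19 (2.58 at 590 bp) and MP (1.86). SAUR genes, which auxin induces, had 14 of 80 (17.5%), near the share of all genes, with SAUR59 (3.53 at 871 bp) and SAUR3 (2.76 at 142 bp) after SAUR55. The bZIP family had 17 of 46 (37.0%, 23.2 to 52.5), led by bZIP5 (3.33 at 373 bp), AT1G06070 (BZIP69, 3.08 at 262 bp) and BZIP49 (2.59 at 84 bp). With the whole interval outside coding genes the Aux/IAA names had 5 genes, the SAUR genes 5 and the bZIP family 6, beside 6.89% of all coding genes. With a −log10 q of at least 10 they had 4, 6 and 9, beside 5.15%.

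B-box factors, zinc finger proteins of light and flowering responses, had 10 of 31 (32.3%, 16.7 to 51.4), and 8 of the 31 had a shared intergenic peak. BBX8 (3.13 at 176 bp), BBX27 (2.83 at 224 bp) and BBX15 (2.76 at 266 bp) came first, followed by COL5 (2.60) and BZS1 (2.37). The peak counted for BBX27 lay nearer to AT1G68200, at 166 bp. NAC factors had 24 of 100 (24.0%, 16.0 to 33.6), with NAC047 (3.66 at 741 bp), AT3G29035 (NAC3, 3.40 at 429 bp) and NAC042 (3.24 at 663 bp) first, and MYB factors had 29 of 125 (23.2%, 16.1 to 31.6). MYB45 and MYB87 had 3.17 each, and MYB3 had 3.10. The B-box, NAC and MYB families had 6, 16 and 20 genes with the whole interval outside coding genes, beside 6.89% of all coding genes. With a −log10 q of at least 10 they had 7, 6 and 11, beside 5.15%.

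Of the other families, genes with RPL or RPS names, most of them for ribosomal proteins, had 11 of 49 (22.4%, 11.8 to 36.6), response regulators 5 of 24 (20.8%), ethylene response factors 5 of 26 (19.2%), SPL names 3 of 18 (16.7%) and JAZ repressors 1 of 12 (8.33%). ERF53 (2.85 at 289 bp) and ERF15 (2.74 at 134 bp) led the ethylene response factors, and RPL15 (2.28 at 68 bp) led the RPL and RPS names, of which it was the only one to reach 2. The peak counted for RPL15 lay nearer to AT3G25930, at 42 bp. The highest response regulator was ARR7, a cytokinin-induced repressor gene, with 1.90. JAZ12 had 2.01 at 74 bp. With the whole interval outside coding genes the RPL and RPS names had 1 gene and the JAZ repressors 0, beside 6.89% of all coding genes. With a reciprocal overlap of 50% the JAZ repressors had 3, beside 18.0%.

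**Figure D5:**
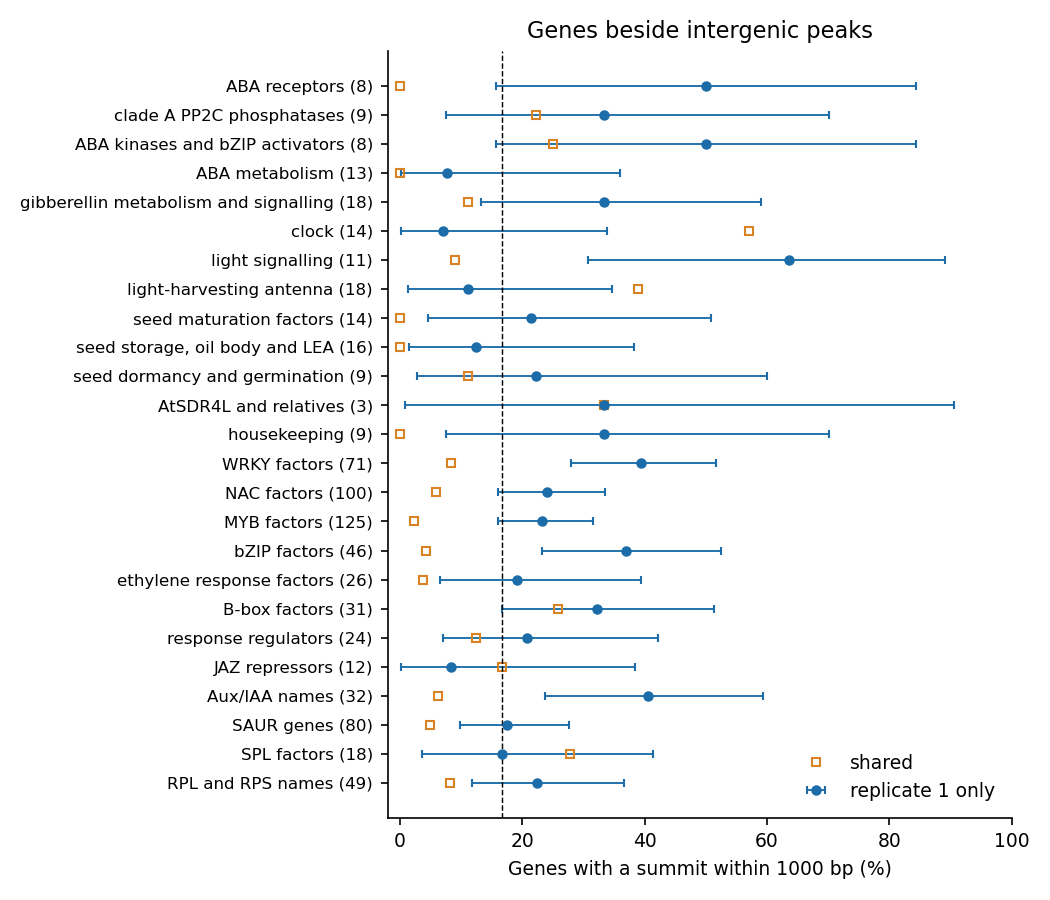
Share of genes with a summit within 1000 bp (x axis, %) for each gene list or family, with its number of genes in brackets. Circles with lines for exact 95% binomial intervals stand for replicate 1-only intergenic peaks, open squares are shared intergenic peaks, and the dashed line marks the 16.7% of all coding genes. Light signalling lies farthest right among the circles and the clock list farthest right among the squares.

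Some gaps between genes held several of these peaks. The 4433 lay in 3745 gaps, of which 3212 held 1, 416 held 2 and 117 held 3 or more, up to 5. The gap of 11425 bp between AT1G30820 and DIS2, an actin regulator gene, held 5 with folds of 2.104 to 3.82. The gap of 11945 bp between GATL3 and RAV1, a transcription factor gene of growth and flowering, held 5 with 1.72 to 3.01. The other 3 gaps with 5 lay beside ARR9, between HA2 and VEL1, and between CYP71A16 and MRN1, with folds between 1.39 and 2.38.

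Few peaks narrowly missed a replicate 2 peak. The gap to the nearest replicate 2 interval had a median of 9138 bp and was at most 500 bp for 138 (3.11%) and at most 1000 bp for 408 (9.20%). The smallest was 20 bp, for a peak at chromosome 1: 6324646-6325871 beside HIK with a fold of 3.57, and the next were 26 to 58 bp with folds of 1.41 to 2.13. On the other side of the rule, the shared intergenic peaks with the smallest overlaps, 7 to 24 bp, had folds of 1.39 to 2.65. The median fold was 1.93 (1.79 to 2.01) within 500 bp of a replicate 2 peak and 1.84 (1.82 to 1.86) beyond 5000 bp.

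A shared intergenic peak lay in the same gap between genes for 455 of the 4433 (10.3%, 9.39 to 11.2), and their median fold was 2.06 (1.99 to 2.104) against 1.84 (1.82 to 1.86) for the rest. Those gaps were also longer, with a median of 5920 bp against 2018 bp. In the authors' deposited table, 182 regions matched between replicates had an irreproducible discovery rate (IDR) of at most 0.05. Of the 140 coding genes with the summit of such a region in their span or within 1000 bp of it, 24 (17.1%) also had a replicate 1-only intergenic peak, near the 16.7% of all coding genes. The highest folds among the 24 were at BBX15 (2.76), at RLK, a receptor-like kinase gene (2.69), at AT1G02350 (2.69), at HIPP25, a metal-binding protein gene (2.29), and at CAX9, a cation exchanger gene (2.25). The summits of the 2 kinds of peak lay 1176 to 2737 bp apart at these 5 genes.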

How the data were processed

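Each induced replicate was compared with 1 uninduced control to call peaks, per the design text of the series. The submitters' processing notes list MACS2 2.2.7.1, SAMtools 1.7, Bowtie2 2.3.5.1, bcl2fastq 2.20 and the TAIR10 build. The deposited peak lists hold a score, a fold enrichment ratio, −log10 p and q values and a summit position. The deposited table of IDR values holds a score and −log10 IDR; its program version is not given in the sources used here. Every deposited q was below 0.1. No read counts are in these files, so depth is unknown.

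Of rows with equal intervals the highest −log10 q was kept (12865 rows gave 9811 nuclear peaks in replicate 1, 4502 gave 3423 in replicate 2). Genes came from a RefSeq table of TAIR10.1, used for names and for which genes neighbour a summit; none of its coordinates are printed. All 150 list genes matched by locus tag. Shares have exact (Clopper-Pearson) and medians order-statistic 95% intervals. Both cover counting error over peaks only. No test was run, since 1 library defines the peaks. Genes were named by size of fold, width, distance and up to 5 per list, and others as said in the text. Peaks, lists and rules were chosen with earlier results of these data known. The step analysis was added after the values were seen, and so were its tolerance and its floor of 20 rows. Its spacing was refined by least squares after a coarser estimate had put fewer folds on the steps at a tighter tolerance. A planned comparison of promoter motifs was not run because no sequence was used here. On simulated peaks beside 2000 genes, 803 of 803 planted peaks and 422 of 422 planted neighbours were recovered. Python 3.11.15, numpy 2.4.6, pandas 2.3.3, scipy 1.17.1 and matplotlib 3.10.9 were used.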

Additional observations from a re-analysis of the deposited data

How the results depend on the processing

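At a −log10 q of at least 5 there were 2738 peaks with a median fold of 2.13, a width of 474.5 bp, 74.6% within 1000 bp, a median distance of 309 bp, 3.98% in non-coding spans and 2746 neighbouring genes. At 10 the same values were 1455, 2.44, 539 bp, 71.5%, 388 bp, 3.57% and 1412, with 15 of the fixed list genes in place of 39. Fewer peaks pass those limits by construction. With the whole interval outside coding genes there were 2464 peaks, a width of 385 bp, 60.4% within 1000 bp, a distance of 747 bp, 6.33% in non-coding spans, 1891 neighbouring genes and 14 list genes, and light signalling kept 1 of its 7. With a reciprocal overlap of 50% the median fold was 1.90 and the width 446 bp. All intergenic peaks of replicate 1, without replicate 2, had a median fold of 1.96 and a width of 449 bp. Their median distance was 294 bp, with 76.4% within 1000 bp. They had 5471 neighbouring genes and 61 list genes, in place of 4573 and 39. With each peak counted only for its nearest gene, at any distance, there were 3824 neighbouring genes and 34 list genes. With bins of under 150 genes 4.22% of peaks were gene-poor. With summits outside every annotated gene the non-coding share is 0% by construction. With step tolerances of 0.00001 and 0.0001, added after seeing the data, 49.4% and 49.7% of peaks lay on the steps. No paired analysis was possible because the 2 replicates form 1 group and no test was run. Unknown depth limits every fold, and a peak list says nothing of places below its limit.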
